A study of Mus musculus with 24 samples.

Results

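Forelimb buds held in culture for 24 h were compared with forelimb buds held for 3 h, both without the test compound, across all genes. The 24 h group and the 3 h group had 4 libraries each, which is 8 of the 24 libraries of the series. All buds were taken from CD1 mouse embryos, an outbred stock, at gestation day 13 and were cultured in DMSO, the vehicle of the study's compound. The other libraries came from buds cultured for the same times with 1 µM or 10 µM BPDP. BPDP stands for tert-butylphenyl diphenyl phosphate, which belongs to the organophosphate esters and is used to slow burning and to soften plastics; the study examined its effect on hedgehog signalling. Every member of both control groups therefore carried DMSO and had been explanted, and no library of buds taken straight from the embryo was analysed here. Development of the bud and adaptation to culture cannot be told apart in this design. The labels do not say how many embryos or litters went into a library, so p-values measure the spread between these libraries, which may be partly technical.

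A limb bud of this stage is a core of mesenchyme under a sheet of ectoderm. The mesenchyme condenses into cartilage, which lays down a matrix of type II collagen and aggrecan, and the oldest chondrocytes then enlarge (hypertrophy) and prepare the matrix for bone. Muscle precursors that have migrated in from the somites fuse into fibres, the ectoderm stratifies into epidermis, and vessels, nerves with their glia, blood cells and macrophages reach the bud from the body.

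The labelled tissue was checked against marker genes. Tbx5, the transcription factor of the forelimb, stood at 189.8, 243, 253 and 266 CPM in the 24 h buds, against 264, 286, 284 and 304 CPM in the 3 h buds. The summed level of Tbx4 and Pitx1, the factors of the hind limb, was 20.8 to 27.8 CPM in 24 h buds and 24.8 to 31.2 CPM in 3 h buds. The 8 limb mesenchyme markers summed to 1864 to 2053 CPM in 24 h buds and 2057 to 2143 CPM in 3 h buds, without overlap, although none of them passed the test described below on its own. Markers of neurons, lymphocytes, neutrophils and fat cells summed to at most 10.2 CPM per list in any control library.

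Levels are given as CPM, a gene's count relative to its library's total after TMM scaling, which sets libraries on one scale by the bulk of their genes. The 24 h libraries held 17093724 to 19972395 counts and the 3 h libraries 17308913 to 19369801. On the first principal component, with 34.4% of the variance, the times separated, and on the second, with 20.5%, replicates 1 and 2 lay apart from replicates 3 and 4 at both times. Xist, the RNA of the inactive X chromosome, stood at 708, 649, 230.2 and 139.6 CPM in the 24 h buds, against 0.402, 0.373, 323 and 249 CPM in the 3 h buds, so 3 h replicates 1 and 2 were near 0 where the other libraries were not. Whether the sex of the embryos differed between the times was not tested. Leaving these libraries out keeps only replicates 3 and 4 at 3 h, against replicates 1 to 4 at 24 h. Xist and the replicate split of the second component cannot be told apart in such results. The 3 h replicate 4 held 48610 CPM of the lincRNA Yam1, against 744 to 1187 CPM in the other control libraries. Where leaving out a library, or both 3 h libraries with Xist near 0 (the Xist-low libraries), ends a call or moves a count of calls or a called fold change by over 1.5 times, this is given in the same paragraph. Genes named only among the largest changes, without values of their own, are an exception.

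Of 15640 genes with enough counts to be tested, 1494 (9.55%) passed the test, edgeR's quasi-likelihood test with Benjamini-Hochberg adjusted p under 0.05. Of these, 852 (5.45%) were higher at 24 h and 642 (4.10%) lower. A change of at least 2-fold was seen in 300 of the higher genes (1.92% of those tested) and 74 of the lower (0.473%). The 4 libraries of each time did not overlap for 2610 genes (16.7%), 1314 higher (8.40%) and 1296 lower (8.29%). The count of calls was 791 without 3 h replicate 3, 834 without 3 h replicate 4 and 697 without the 3 h replicates with Xist near 0, and every one of the 1494 genes kept its direction in each of these. The genes were chosen on these same libraries, so a kept direction was nearly given and does not measure reproducibility. The authors' deposited table called 2131 genes at the same threshold, 1489 of them shared with the 1494 and all 1489 in the same direction.

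The 12 largest rises among called genes that averaged 50 or more counts at 24 h and did not overlap with 3 h were led by genes of the outer epidermis, among them Krt77, Krt1, Calm4, Dsc1, Ly6d, Klk7 and Dsg1b, with the macrophage gene Gpnmb beside them. The 12 largest falls, chosen likewise, held the vessel genes Aplnr and Plvap, the retinoic acid enzyme gene Aldh1a2, the receptor genes Gpr17 and Ednrb, the red cell gene Slc4a1, Padi3, and 5 histone genes (Hist1h2bk, Hist1h3h, Hist1h2ai, Hist1h2ae and Hist1h3e). Histone genes of a cluster are near-identical, so reads may be shared between them. Their RNA also mostly lacks the poly-A tail by which these libraries were captured. The calls of Krt77 and Krt1 were lost without several single libraries or without the Xist-low libraries (edgeR, adjusted p of 0.207 and 0.104), as detailed below. For Calm4, Dsc1, Klk7, Dsg1b, Ednrb, Padi3, Hist1h2ai, Hist1h2ae and Hist1h3e, the effect of leaving out libraries is not reported here.

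**Figure D1:**
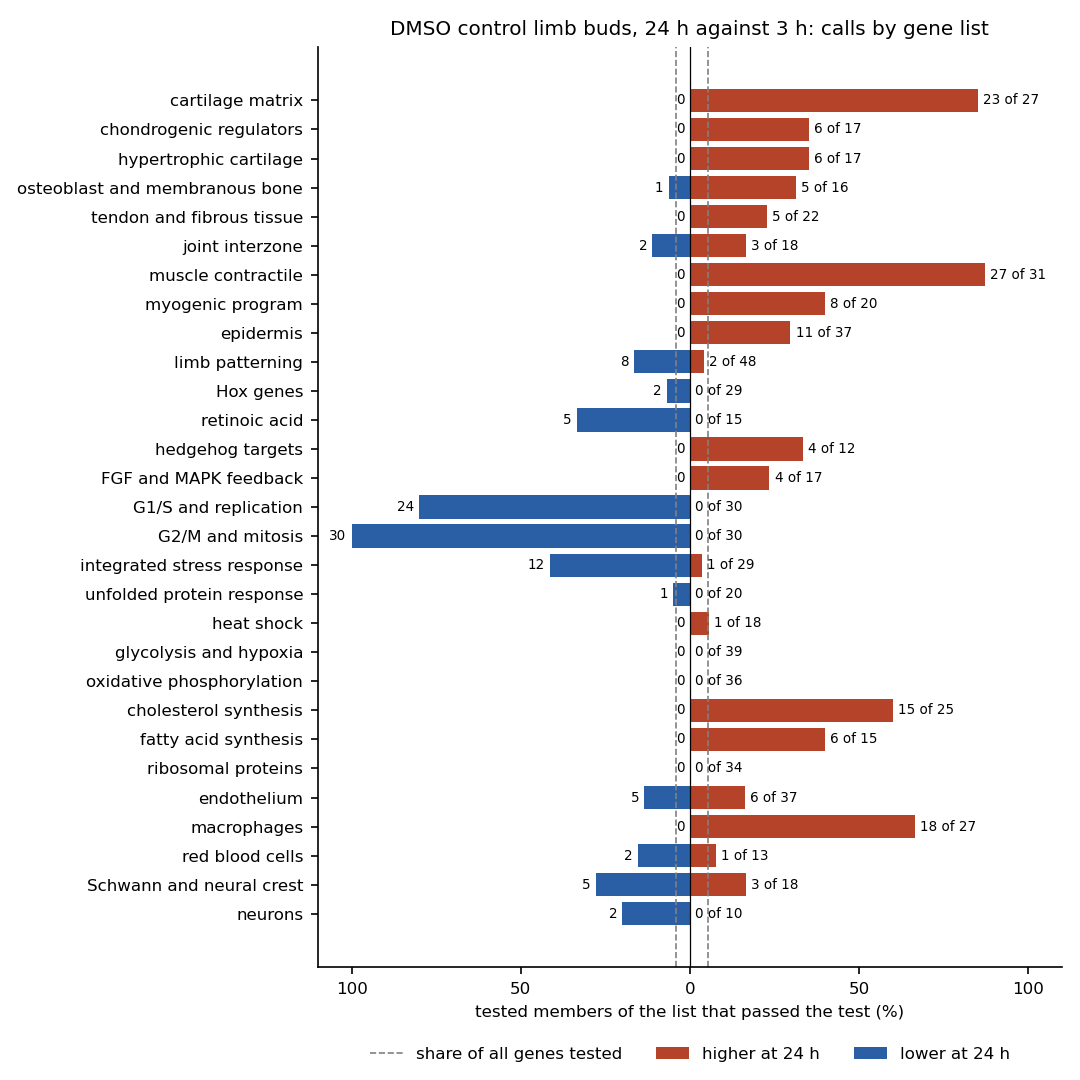
Share of the tested members of each gene list that passed the test (adjusted p under 0.05), higher at 24 h to the right in red and lower at 24 h to the left in blue, with the count of members printed at the bar. The dashed lines mark the share of all tested genes, 5.45% higher and 4.10% lower. All 30 G2/M genes fell and 23 of 27 cartilage matrix genes rose.

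Cartilage matrix genes were higher at 24 h nearly throughout. Of 27 members tested, 23 rose and none fell, with a median log2 fold change of 1.02, against 0.0092 over all tested genes. The count moved by under 1.5 times with each library left out. The 4 cartilage markers summed to 5295 to 8248 CPM at 24 h and 3116 to 4124 CPM at 3 h. Because these are bulk samples, here and in all that follows, more cells of a type and more RNA per cell cannot be told apart, nor can fewer cells and less RNA. Col2a1 (chr15:97975602-98004695, minus strand), the main collagen of cartilage, had 7065, 6142, 4270 and 4680 CPM in the 24 h buds, against 3232, 2869, 2372 and 2405 CPM in the 3 h buds (log2 fold change 1.03, SE 0.19, adjusted p = 0.0043). The groups did not overlap, and replicates 1 and 2 were the higher pair at both times. Col9a1, a chain of the type IX collagen that coats the fibrils of Col2a1, had 1214, 992, 727 and 808 CPM at 24 h, against 552, 492, 375 and 408 CPM at 3 h (log2 fold change 1.03, SE 0.17, adjusted p = 0.00242), in the same order of libraries. Matn1, a matrilin that links matrix fibrils, had 459, 437, 262 and 262 CPM at 24 h, against 158, 147, 86.04 and 98.8 CPM at 3 h (log2 fold change 1.54, SE 0.27, adjusted p = 0.0102), again highest in replicates 1 and 2. Prelp and Chad, small leucine-rich matrix proteins made by maturing cartilage, had some of the larger fold changes of the list. Prelp had 57.1, 66.5, 52.8 and 47.05 CPM at 24 h, against 26.2, 19.4, 10.98 and 14.5 CPM at 3 h (log2 fold change 1.65, SE 0.23, adjusted p = 0.0021). Chad had 31.8, 36.99, 25.8 and 27.3 CPM at 24 h, against 12.6, 11.8, 9.68 and 10.2 CPM at 3 h (log2 fold change 1.46, SE 0.15, adjusted p = 0.000127), with little spread within a time.

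Comp, the cartilage oligomeric matrix protein, had the largest log2 fold change of the matrix list. It had 178, 174, 127 and 119.8 CPM at 24 h, against 75.95, 53.5, 24.2 and 27.7 CPM at 3 h (log2 fold change 1.72, SE 0.40, adjusted p = 0.0422). Its groups did not overlap, yet the call was lost on leaving out any library except 3 h replicate 1, with an adjusted p of up to 0.104. Its 3 h level was higher in replicates 1 and 2 than in replicates 3 and 4, and without the Xist-low libraries its log2 fold change was 2.53.

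The regulators of cartilage had smaller fold changes. Of 17 tested, 6 rose and none fell (median 0.38), and 3 rose without the 3 h replicates with Xist near 0. Sox9, the factor that starts the cartilage programme, had 351, 417, 474 and 501 CPM at 24 h, against 499.5, 426, 507 and 530.2 CPM at 3 h and did not pass the test (log2 fold change -0.17, SE 0.13, adjusted p = 0.442). Mef2c, which drives chondrocyte enlargement and also muscle differentiation, had 178, 179, 195 and 223 CPM at 24 h, against 128, 88.5, 95.6 and 95.4 CPM at 3 h (log2 fold change 0.93, SE 0.12, adjusted p = 0.000519), with no overlap. Zbtb20, a zinc finger factor of maturing chondrocytes, rose too, at a log2 fold change of 0.80, a call lost without the Xist-low libraries (adjusted p = 0.117). Fgfr3, the receptor that restrains chondrocyte proliferation, had 189, 197, 135 and 155 CPM at 24 h, against 106, 119, 97.02 and 87.4 CPM at 3 h (log2 fold change 0.72, SE 0.13, adjusted p = 0.00374). Foxa3, a forkhead factor of maturing chondrocytes, had 10.2, 12.4, 12.3 and 11.8 CPM at 24 h, against 6.54, 4.32, 4.39 and 4.33 CPM at 3 h (log2 fold change 1.25, SE 0.19, adjusted p = 0.00135). Both were higher in every 24 h library. Pth1r, the receptor for the parathyroid hormone-related signal that delays enlargement, had 178, 153, 159 and 148 CPM at 24 h, against 176, 158, 157 and 152 CPM at 3 h and did not pass (log2 fold change -0.0090, SE 0.090, adjusted p = 0.963).

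Genes of enlarging cartilage and of early bone rose in part, with a wide spread between libraries. Of 17 hypertrophic cartilage genes tested, 6 rose, none fell, and all 17 had a positive log2 fold change (median 1.02), called or not. Mmp9, a protease of resorbed cartilage, had 33.7, 35.1, 24.1 and 29.9 CPM at 24 h, against 11.6, 8.36, 6.49 and 9.62 CPM at 3 h (log2 fold change 1.77, SE 0.18, adjusted p = 0.000128). Alpl, the alkaline phosphatase of mineralising matrix, had 28.8, 37.2, 34.1 and 27.8 CPM at 24 h, against 17.5, 15.4, 9.83 and 6.695 CPM at 3 h (log2 fold change 1.37, SE 0.26, adjusted p = 0.00691). Runx2, the factor that commits cells to hypertrophy and bone, had 57.4, 57.1, 43.8 and 47.6 CPM at 24 h, against 39.01, 37.9, 27.5 and 29.6 CPM at 3 h (log2 fold change 0.62, SE 0.14, adjusted p = 0.011). In these 3 genes the groups did not overlap.

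Col10a1 and Ibsp, the type X collagen of enlarged chondrocytes and the bone sialoprotein, had larger fold changes but did not pass. Col10a1 had 156, 125, 25.4 and 12.8 CPM in the 24 h buds, against 15.6, 9.48, 3.77 and 3.26 CPM in the 3 h buds (log2 fold change 3.32, SE 1.02, adjusted p = 0.108). Replicates 1 and 2 were above replicates 3 and 4 of the same time throughout, and 3 h replicate 1 exceeded 24 h replicate 4. Ibsp had 70.1, 261, 98.3 and 53.6 CPM at 24 h, against 15.4, 8.63, 0.628 and 0.338 CPM at 3 h (log2 fold change 4.28, SE 1.15, adjusted p = 0.0735), without overlap, and again the 3 h level of replicates 1 and 2 was far above that of replicates 3 and 4. Within replicates 3 and 4 alone, 11 of the hypertrophic genes rose instead of 6, Col10a1 with an adjusted p of 0.00162 and Ibsp with 0.00706. Within replicates 1 and 2 alone, 2 of the hypertrophic genes rose, in a fit where 44 genes passed in all. Of 16 osteoblast genes tested, 5 rose and 1 (Msx2) fell. The rises counted 2 without the 3 h replicates with Xist near 0, and the fall was lost on leaving out any library but 24 h replicate 1, or both Xist-low libraries. Ifitm5, a membrane protein of osteoblasts, had 3.86, 16.04, 10.5 and 8.46 CPM at 24 h, against 3.098, 3.09, 2.82 and 1.69 CPM at 3 h (log2 fold change 1.86, SE 0.37, adjusted p = 0.00815). Without the Xist-low libraries its adjusted p was 0.0608. Col1a1, the main collagen of bone and of connective tissue in general, had 3738, 3448, 2507 and 2834 CPM at 24 h, against 2976, 2254, 2045 and 2150 CPM at 3 h and did not pass (adjusted p = 0.157).

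Joint genes went both ways, and fibrous tissue genes rose in part. Of 18 joint interzone genes tested, 3 rose and 2 fell, 1 of the falls without the 3 h replicates with Xist near 0. Of all tested genes, 5.45% rose and 4.10% fell. Gdf5, the growth factor that marks the future joint, had 36.1, 43.1, 58.2 and 49.3 CPM at 24 h, against 66.5, 72.9, 91.8 and 78.1 CPM at 3 h (log2 fold change -0.73, SE 0.14, adjusted p = 0.00605). Osr1, a factor of joint and connective tissue, had 76.9, 96.8, 89.1 and 102 CPM at 24 h, against 133, 124, 124 and 124 CPM at 3 h (log2 fold change -0.46, SE 0.095, adjusted p = 0.00792). Both fell, and neither overlapped between the times; the call of Osr1 was lost without the Xist-low libraries (adjusted p = 0.0813). Cd44, the hyaluronan receptor, rose, with 40.6, 30.2, 45.1 and 27.6 CPM at 24 h, against 21.8, 19.4, 14.6 and 12.3 CPM at 3 h (log2 fold change 1.08, SE 0.20, adjusted p = 0.00526). Dcx, a microtubule protein, rose too, with 40.8, 65.2, 58.5 and 57.02 CPM at 24 h, against 38.95, 30.5, 25.3 and 27.4 CPM at 3 h (log2 fold change 0.86, SE 0.16, adjusted p = 0.00446). The other rise was in Enpp2, which makes the lipid signal lysophosphatidic acid, with a log2 fold change of 0.65. Of 22 tendon and fibrous tissue genes, 5 rose and none fell. The count ran between 2 and 8 when single libraries were left out. Eln, the gene of elastin, had 293, 309.8, 244 and 269.9 CPM at 24 h, against 202, 139, 138 and 139 CPM at 3 h (log2 fold change 0.85, SE 0.13, adjusted p = 0.00149). Col14a1, a collagen of fibrous tissue, had 139, 118, 103 and 96.9 CPM at 24 h, against 87.02, 67.9, 54.8 and 55.1 CPM at 3 h (log2 fold change 0.79, SE 0.16, adjusted p = 0.00819).

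Muscle genes rose, those of the contractile machinery most uniformly. Of 31 contractile genes tested, 27 rose and none fell (median 0.95), and this count moved by under 1.5 times with each library left out. The 4 skeletal muscle markers summed to 1207 to 1720 CPM at 24 h and 686 to 837 CPM at 3 h. Acta1 (chr8:123891767-123894736, minus strand), the skeletal muscle actin, had 558, 490.1, 683 and 676 CPM in the 24 h buds, against 263, 189.5, 189.6 and 229 CPM in the 3 h buds (log2 fold change 1.47, SE 0.14, adjusted p = 0.00011). Tnnt2, a troponin of embryonic muscle, had 141, 153, 176 and 151 CPM at 24 h, against 68.7, 61.4, 49.9 and 59.5 CPM at 3 h (log2 fold change 1.37, SE 0.11, adjusted p = 3.19e-05). Myh8, the perinatal myosin heavy chain, had 201, 221, 277 and 242 CPM at 24 h, against 99.8, 82.5, 98.6 and 101 CPM at 3 h (log2 fold change 1.30, SE 0.11, adjusted p = 4.81e-05). In all 3, every 24 h library was above every 3 h library. Myh3, the embryonic myosin heavy chain, had 458, 668, 770 and 817 CPM at 24 h, against 377, 323, 342 and 385 CPM at 3 h (log2 fold change 0.93, SE 0.16, adjusted p = 0.00288), and its adjusted p was 0.0508 without the Xist-low libraries. Cacna1s, the calcium channel that couples excitation to contraction, had 22.9, 32.96, 29.1 and 30.9 CPM at 24 h, against 11.7, 13.2, 12.2 and 10.6 CPM at 3 h (log2 fold change 1.28, SE 0.14, adjusted p = 0.000194).

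Among 20 genes of the myogenic programme, 8 rose and none fell (median 0.50); without the 3 h replicates with Xist near 0, 5 rose. The subunits of the fetal acetylcholine receptor, through which nerve signals to muscle, rose together. Chrng had 33.3, 43.2, 44.9 and 43.7 CPM at 24 h, against 15.7, 19.7, 22.1 and 19.8 CPM at 3 h (log2 fold change 1.10, SE 0.14, adjusted p = 0.000391). Chrnd had 13.4, 19.4, 16.9 and 21.5 CPM at 24 h, against 7.51, 7.67, 7.48 and 8.89 CPM at 3 h (log2 fold change 1.17, SE 0.17, adjusted p = 0.000934). Chrna1 had 32.2, 45.9, 50.9 and 43.2 CPM at 24 h, against 23.3, 19.5, 19.8 and 20.6 CPM at 3 h (log2 fold change 1.05, SE 0.14, adjusted p = 0.000549). Myog, the factor of myoblast fusion, had 133, 169, 171 and 148 CPM at 24 h, against 112, 104, 105 and 112 CPM at 3 h (log2 fold change 0.52, SE 0.094, adjusted p = 0.0038), and its adjusted p was 0.053 without the Xist-low libraries. Myod1, which marks committed myoblasts, had 57.2, 80.01, 78.3 and 78.8 CPM at 24 h, against 84.4, 69.5, 78.1 and 76.9 CPM at 3 h and did not pass (adjusted p = 0.759).

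**Figure D2:**
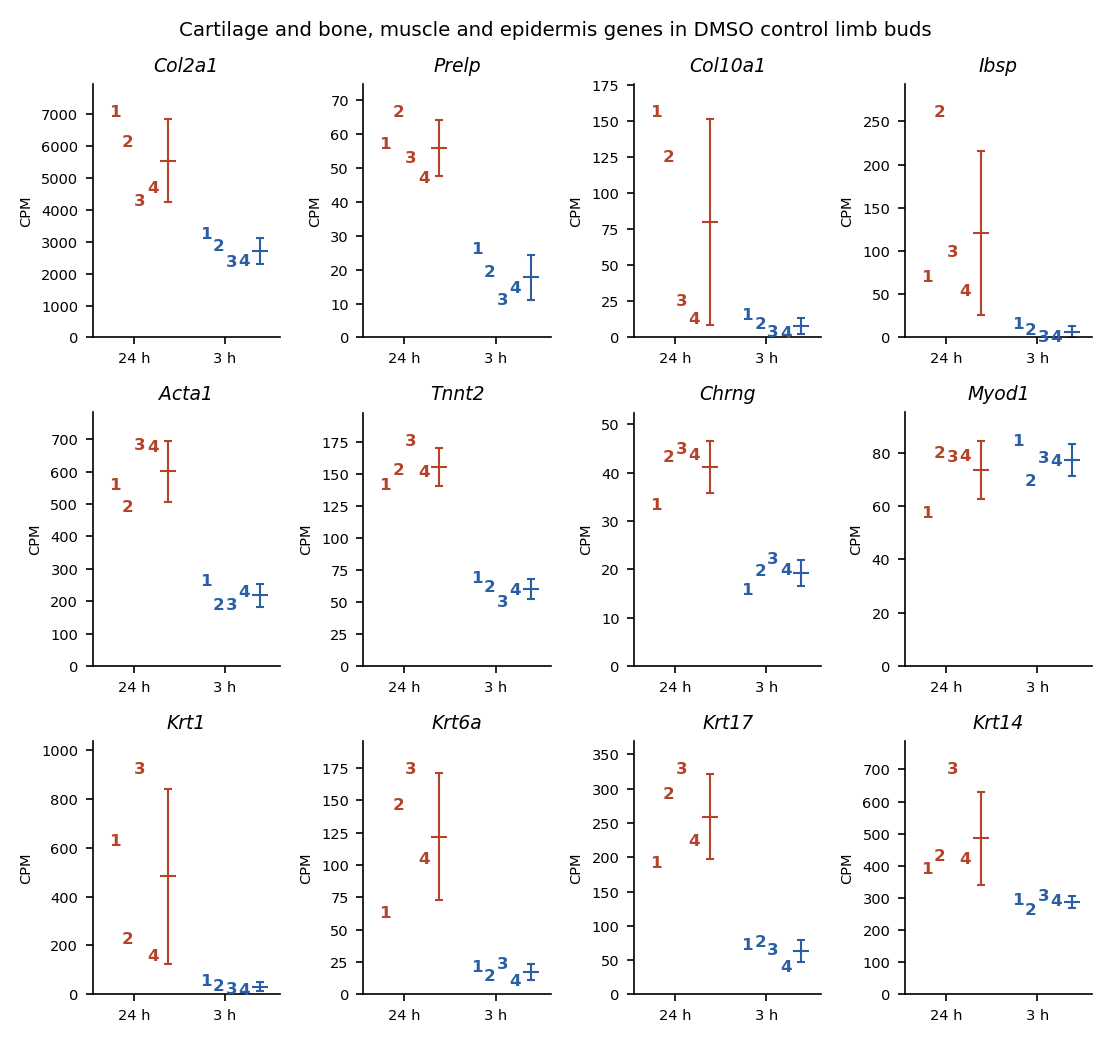
CPM of 12 genes in each control library, 24 h on the left of each panel in red and 3 h on the right in blue; the digits are the replicate numbers and the bar beside them is the mean ± SD (n = 4). Acta1, Tnnt2 and Chrng separate by time with a narrow spread, and Myod1 overlaps. Col10a1 is split by replicate at both times and Ibsp at 3 h only. Krt1 spreads between 158 and 921 CPM at 24 h.

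Epidermal genes gave the largest fold changes and the widest spread among the 24 h libraries. Of 37 tested, 11 rose and none fell (median 0.95). The count was 5 without 3 h replicate 2, 3 or 4, 6 without 24 h replicate 1, and 2 without the 3 h replicates with Xist near 0. The 4 epidermal markers summed to 977 to 1671 CPM in 24 h buds and 725 to 858 CPM in 3 h buds.

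Keratins of the differentiated layers above the basal one had low levels at 3 h and high but variable ones at 24 h. Keratin genes are related in sequence, so some of their reads may be shared. Krt1 (chr15:101845428-101850786, minus strand) had 628, 226, 921 and 158 CPM in the 24 h buds, against 55.1, 34.6, 21.8 and 16.2 CPM in the 3 h buds (log2 fold change 3.92, SE 0.77, adjusted p = 0.0286). Krt10, its partner, had 318, 117, 429.8 and 67.7 CPM at 24 h, against 33.6, 26.8, 10.2 and 13.2 CPM at 3 h (log2 fold change 3.48, SE 0.77, adjusted p = 0.042). Krt77 had 48.7, 14.3, 235 and 11.3 CPM at 24 h, against 0.803, 0.213, 0.157 and 0.0563 CPM at 3 h (log2 fold change 7.97, SE 1.68, adjusted p = 0.0376). In all 3 the groups did not overlap, 24 h replicates 1 and 3 were the highest and replicate 4 the lowest. Their calls depended on single libraries. That of Krt1 was lost without 3 h replicate 2, 3 or 4 or 24 h replicate 1 (adjusted p of up to 0.0964). That of Krt10 was lost without any library but 24 h replicate 4 (up to 0.13), and that of Krt77 without any 3 h library or 24 h replicate 1 (up to 0.122). Without the Xist-low libraries all 3 calls were lost (adjusted p of 0.104 for Krt1, 0.131 for Krt10 and 0.207 for Krt77), while their log2 fold changes were 4.67, 4.32 and 9.39. The log2 fold change of Krt77 was 9.01 without 3 h replicate 1 and 6.32 without 24 h replicate 3. Ly6d, a surface protein of differentiating keratinocytes, had 20.4, 19.01, 33.6 and 8.26 CPM at 24 h, against 2.18, 1.17, 0.523 and 0.394 CPM at 3 h (log2 fold change 4.25, SE 0.60, adjusted p = 0.00441) and kept its call with each library left out. Its log2 fold change was 4.85 without 3 h replicate 1 and 5.44 without the Xist-low libraries.

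Keratins known from healing skin rose with less spread. Krt6a had 62.8, 147, 174 and 105 CPM at 24 h, against 21.1, 14.01, 23.4 and 10.5 CPM at 3 h (log2 fold change 2.82, SE 0.40, adjusted p = 0.00655). Krt17 had 192, 292, 328 and 224 CPM at 24 h, against 72.1, 76.98, 65.1 and 40.6 CPM at 3 h (log2 fold change 2.02, SE 0.23, adjusted p = 0.00105). Replicates 2 and 3 were the highest at 24 h in both. Each kept its call with each single library left out, but that of Krt6a was lost without the Xist-low libraries (adjusted p = 0.075). The keratins of the basal layer moved less. Krt14 had 390.4, 432, 701 and 420.3 CPM at 24 h, against 294, 263, 306 and 291 CPM at 3 h (log2 fold change 0.75, SE 0.16, adjusted p = 0.0114), and its adjusted p was 0.115 without the Xist-low libraries. Its partner Krt5 had 982, 476, 868 and 539.6 CPM at 24 h, against 489.6, 395, 356 and 389 CPM at 3 h (log2 fold change 0.81, SE 0.22, adjusted p = 0.0389), with an adjusted p of up to 0.118 when 3 h replicate 2, 3 or 4 or 24 h replicate 1 or 3 was left out and 0.101 without the Xist-low libraries. Trp63, the factor of the basal layer, had 73.3, 34.3, 55.04 and 37.8 CPM at 24 h, against 37.1, 28.4, 26.4 and 22.96 CPM at 3 h (adjusted p = 0.0735). Epcam, a general epithelial marker, had 66.1, 34.95, 47.4 and 43.7 CPM at 24 h, against 37.4, 43.6, 36.4 and 33.8 CPM at 3 h (adjusted p = 0.221); neither passed.

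Some patterning genes passed, most of them lower at 24 h, with small fold changes for most of the list. Of 48 tested, 2 rose and 8 fell, with a median of -0.16. Over all tested genes 5.45% rose and 4.10% fell. The falls counted 4 without 3 h replicate 2 or 4, 3 without 3 h replicate 3 and 2 without the 3 h replicates with Xist near 0. Hmga2, a chromatin protein of early embryonic cells, had 101, 115, 138 and 137 CPM at 24 h, against 222, 213, 228 and 252 CPM at 3 h (log2 fold change -0.90, SE 0.11, adjusted p = 0.000377). Lhx9, a LIM factor of the distal bud, had 28.2, 27.4, 28.7 and 33.04 CPM at 24 h, against 48.99, 49.6, 58.01 and 53.4 CPM at 3 h (log2 fold change -0.84, SE 0.10, adjusted p = 0.000372). Both fell without overlap. Prrx1, a factor of the whole limb mesenchyme, had 346, 407, 424 and 470 CPM at 24 h, against 463, 430.4, 442 and 452 CPM at 3 h and did not pass (adjusted p = 0.563). Of 29 Hox genes, 2 (Hoxb9 and Hoxa10) fell and none rose, and the count of falls was 0 without 3 h replicate 2 or 4 or without the Xist-low libraries and 1 without 3 h replicate 3 or 24 h replicate 1, 3 or 4. Hoxd13, a gene of the hand region, had 254, 244, 281 and 277 CPM at 24 h, against 288, 352, 330.5 and 339 CPM at 3 h (adjusted p = 0.0651). Its relative Hoxa13 had 56.2, 55.6, 54.8 and 62.97 CPM at 24 h, against 65.6, 71.8, 70.98 and 66.3 CPM at 3 h (adjusted p = 0.0797). Both missed the threshold, without overlap between the times.

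Genes of the retinoic acid pathway fell in part. Retinoic acid is made from vitamin A by aldehyde dehydrogenases, carried by binding proteins and read by nuclear receptors, and in the limb it acts proximally and in the tissue between the digits. Of 15 genes tested, 5 fell and none rose (median -0.22), and 3 fell without 3 h replicate 4 or without the 3 h replicates with Xist near 0. Aldh1a2 (chr9:71215789-71296243, plus strand), the enzyme that makes retinoic acid, had 8.27, 11.9, 10.7 and 16.4 CPM in the 24 h buds, against 27.5, 37.2, 50.3 and 46.02 CPM in the 3 h buds (log2 fold change -1.77, SE 0.22, adjusted p = 0.000652), so the highest 24 h library was below the lowest 3 h library. Stra6, the receptor that takes up vitamin A, had 21.9, 25.96, 31.6 and 25.9 CPM at 24 h, against 36.4, 39.5, 51.1 and 44.2 CPM at 3 h (log2 fold change -0.70, SE 0.14, adjusted p = 0.00587), again without overlap. Crabp2, a carrier of retinoic acid to its receptors, fell too, with a log2 fold change of -0.45, a call lost without 3 h replicate 4 (adjusted p = 0.0544) or without the Xist-low libraries (adjusted p = 0.065).

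Rarb, a receptor gene that retinoic acid itself switches on, had 17.7, 11.8, 9.87 and 11.4 CPM at 24 h, against 17.3, 19.1, 18.3 and 25.4 CPM at 3 h (log2 fold change -0.66, SE 0.19, adjusted p = 0.0449). Replicate 1 stood apart at 24 h, the groups overlapped there, and the call was lost on leaving out any library except 24 h replicate 1, with an adjusted p of up to 0.145, and without the Xist-low libraries (adjusted p = 0.0941). Its promoter is shown because it holds a direct repeat that the receptors bind, searched for as GTTCA, any 5 bases, then AGTTCA, and here in capitals. The sequence is from RefSeq on GRCm38.p6, chr14:16575486-16575555 on the minus strand, 5′ to 3′ in the gene's direction, with the repeat starting 52 bases before the transcription start.
Rarb: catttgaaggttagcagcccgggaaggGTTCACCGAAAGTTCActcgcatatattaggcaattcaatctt
On either strand the repeat was found in the promoter window (250 bases before to 50 after the start) of 2 of the 10 retinoic acid genes that had one, Rarb and Cyp26a1, and in 0.0407% of 27025 genes. The repeat was searched for in the form that Rarb carries, so the match of Rarb was fixed by the choice of letters. No test was made of the shares. A match of letters is a description and no site.

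Targets of hedgehog signalling, the pathway through which the posterior limb bud and later the cartilage are patterned, rose in part. Of 12 tested, 4 rose and none fell, and 2 rose without 3 h replicate 3. Gli1, the pathway's own transcription factor, had 103, 129, 99.2 and 92.3 CPM at 24 h, against 64.3, 72.3, 53.98 and 49.01 CPM at 3 h (log2 fold change 0.82, SE 0.13, adjusted p = 0.00221). Ptch1, the main receptor and target, had 97.7, 85.4, 67.5 and 74.6 CPM at 24 h, against 65.1, 37.8, 41.5 and 34.4 CPM at 3 h (log2 fold change 0.86, SE 0.19, adjusted p = 0.019), with an adjusted p of up to 0.0696 when 3 h replicate 2 or 3 or 24 h replicate 1 or 2 was left out. In both genes the groups did not overlap. Of 17 feedback genes of FGF signalling, 4 rose and none fell, 2 of them without 3 h replicate 2 or 4 or 24 h replicate 1 or 4 and 1 without the 3 h replicates with Xist near 0. Etv5, a factor induced by FGF, had 104, 102, 116 and 143 CPM at 24 h, against 80.1, 80.01, 69.6 and 74.6 CPM at 3 h (log2 fold change 0.61, SE 0.11, adjusted p = 0.00393). Spry4, an inhibitor induced by FGF, had 38.4, 35.7, 34.5 and 38.5 CPM at 24 h, against 27.4, 23.6, 28.7 and 24.7 CPM at 3 h (log2 fold change 0.49, SE 0.11, adjusted p = 0.011), and its adjusted p was 0.0884 without the Xist-low libraries. Of 22 Wnt feedback genes 2 rose and none fell (median -0.014). Of 24 BMP and TGF-beta feedback genes 4 rose and 2 fell (median 0.054). Over all tested genes 5.45% rose and 4.10% fell, and no test was made of these counts. The rises counted 1 in Wnt without 3 h replicate 2, 3 or 4 or 24 h replicate 1 and 2 in BMP without 24 h replicate 4 or without the Xist-low libraries. No BMP gene fell without 3 h replicate 2, 3 or 4, without 24 h replicate 3 or 4 or without the Xist-low libraries, and 1 fell without 3 h replicate 1 or 24 h replicate 2.

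Nearly all genes of cell division tested fell. All 30 G2/M and mitosis genes fell, each without overlap between the times, with a median log2 fold change of -0.82 and a range of -1.12 to -0.55. Of 30 G1/S and replication genes 24 fell and none rose (median -0.52). The G2/M count moved by under 1.5 times with each library left out and without the 3 h replicates with Xist near 0, and the G1/S count was 10 without these 2. Aurka, a kinase of the spindle poles, had 29.1, 23.4, 28.6 and 27.6 CPM in the 24 h buds, against 51.5, 52.1, 64.2 and 68.1 CPM in the 3 h buds (log2 fold change -1.12, SE 0.12, adjusted p = 0.000157). Plk1 (chr7:122159437-122169875, plus strand), a kinase of mitotic entry, had 39.5, 39.1, 39.5 and 42.9 CPM at 24 h, against 77.3, 73.8, 87.5 and 81.6 CPM at 3 h (log2 fold change -0.99, SE 0.090, adjusted p = 6.27e-05). Kif2c, a kinesin that corrects spindle attachments, had 22.98, 26.3, 29.4 and 27.6 CPM at 24 h, against 47.7, 54.9, 62.5 and 60.1 CPM at 3 h (log2 fold change -1.08, SE 0.11, adjusted p = 0.000151). The 24 h libraries lay close together in all 3 genes.

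Mki67, the antigen of proliferating cells, had 143, 152, 142 and 155 CPM at 24 h, against 245, 246, 271 and 256 CPM at 3 h (log2 fold change -0.78, SE 0.084, adjusted p = 0.000157). Top2a, the topoisomerase that untangles chromosomes, had 185, 179.5, 177 and 201 CPM at 24 h, against 288, 285, 331 and 332 CPM at 3 h (log2 fold change -0.74, SE 0.094, adjusted p = 0.000437). Ube2c, which marks cyclins for degradation, had 74.2, 64.8, 68.3 and 76.2 CPM at 24 h, against 105, 120.4, 137 and 144 CPM at 3 h (log2 fold change -0.84, SE 0.11, adjusted p = 0.000436). Mcm5 and Mcm6 are subunits of the replicative helicase. Mcm5 had 77.7, 114, 124 and 111 CPM at 24 h, against 175, 165, 188 and 200.1 CPM at 3 h (log2 fold change -0.77, SE 0.13, adjusted p = 0.00244). Mcm6 had 124, 132, 161 and 149 CPM at 24 h, against 197, 172, 178 and 213 CPM at 3 h (log2 fold change -0.43, SE 0.11, adjusted p = 0.0214), with an adjusted p of up to 0.0788 when 3 h replicate 1 or 4 was left out and 0.0814 without the Xist-low libraries. Of the histone genes of replicating cells, Hist1h2bk had 1.103, 0.9197, 0.587 and 0.353 CPM at 24 h, against 2.64, 2.93, 6.17 and 6.47 CPM at 3 h (log2 fold change -2.62, SE 0.43, adjusted p = 0.00223). Of 16 cyclin D and cycle inhibitor genes, 3 rose and none fell, 1 of them without the 3 h replicates with Xist near 0. Cdkn1a, the inhibitor p21, had 135, 143, 179 and 157 CPM at 24 h, against 88.2, 61.96, 69.9 and 86.4 CPM at 3 h (log2 fold change 1.003, SE 0.12, adjusted p = 0.000398). Cdkn2b, the inhibitor p15, had 3.800, 4.04, 5.49 and 3.63 CPM at 24 h, against 1.43, 1.44, 1.78 and 1.41 CPM at 3 h (log2 fold change 1.48, SE 0.28, adjusted p = 0.00445), both without overlap. The call of Cdkn2b was lost without the Xist-low libraries (adjusted p = 0.0549).

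**Figure D3:**
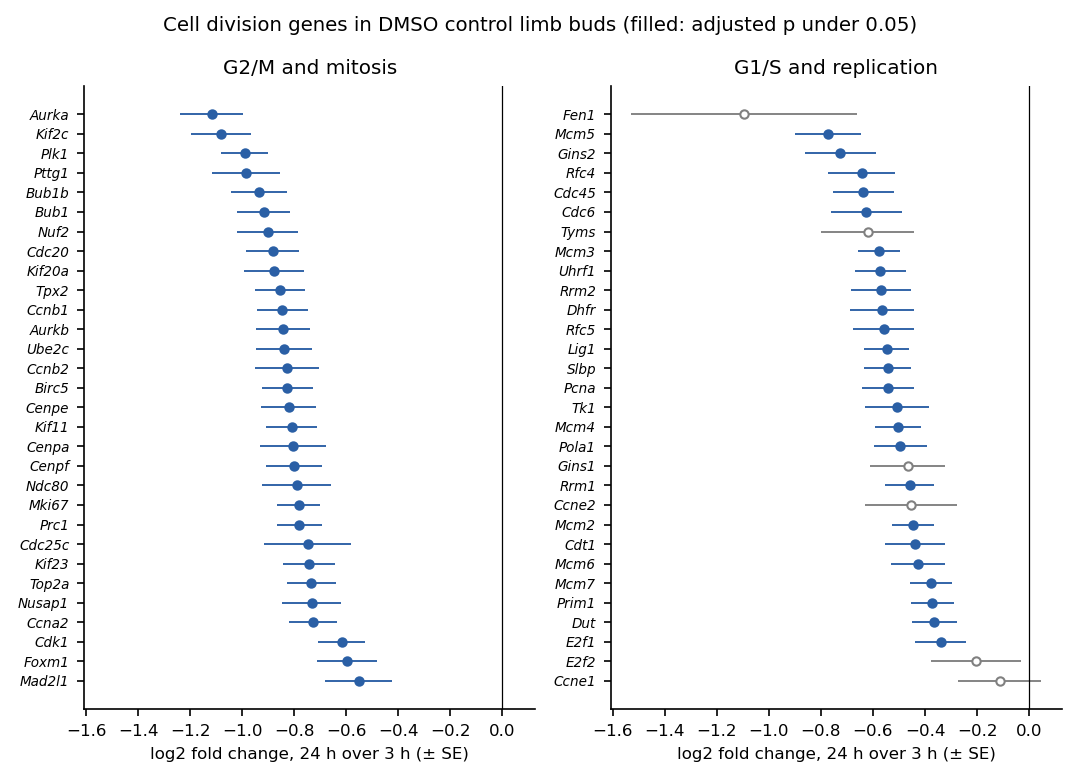
Log2 fold change of 24 h over 3 h (± SE) for every tested gene of the G2/M list on the left and of the G1/S list on the right, filled where the adjusted p is under 0.05. All 30 G2/M genes lie between -1.12 and -0.55; 24 of 30 G1/S genes are filled, and the 6 open points include Fen1 at -1.10 with the widest error.

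Promoters of genes from both lists are printed to show the letters searched for in each. The DREAM and B-MYB complexes, which repress and activate mitotic genes through the cycle, bind an element called CHR (TTTGAA), and E2F factors bind sites such as TTTGGCGC in replication genes. Each stretch below ends at or before the transcription start, reads 5′ to 3′ in the gene's direction on GRCm38.p6 (RefSeq), and carries in capitals every match within it, on either strand, of the motif it was searched for. The promoter windows of Top2a and Mcm6 hold 2 matches each, 1 of them outside the printed stretch.
Kif2c (CHR), chr4:117178843-117178902 on the minus strand: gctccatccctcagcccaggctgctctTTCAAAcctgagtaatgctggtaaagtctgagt
Top2a (CHR), chr11:99024190-99024239 on the minus strand: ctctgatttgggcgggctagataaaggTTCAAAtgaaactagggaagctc
Mki67 (CHR), chr7:135716445-135716504 on the minus strand: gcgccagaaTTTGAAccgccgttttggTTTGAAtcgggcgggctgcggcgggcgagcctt
Ube2c (CHR), chr2:164769873-164769928 on the plus strand: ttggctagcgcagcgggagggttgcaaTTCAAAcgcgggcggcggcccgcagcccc
Mcm5 (E2F), chr8:75109333-75109394 on the plus strand: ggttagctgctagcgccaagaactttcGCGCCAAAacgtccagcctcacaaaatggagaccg
Mcm6 (E2F), chr1:128359718-128359779 on the minus strand: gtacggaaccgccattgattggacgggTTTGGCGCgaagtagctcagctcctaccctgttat
CHR letters were present in 16 of the 24 G2/M genes with a promoter window (66.7%), in 4 of 25 G1/S genes (16%), and in 20.2% of all 27025 genes. The E2F letters were in none of the 24 G2/M genes, in 6 of 25 G1/S genes (24%) and in 0.585% of all genes. CCAAT, a common promoter box, was in 17 of 24 G2/M genes (70.8%), 14 of 25 G1/S genes (56%) and 41.1% of all genes. No test was made of these shares.

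Genes of the integrated stress response fell in part. This response is read out by the factor ATF4 and raises genes of amino acid import and synthesis. Of 29 genes tested, 12 fell and 1 (Atf5) rose, with a median of -0.45. The count of falls was 8 without 3 h replicate 3 or without the Xist-low libraries and 9 to 12 with each other library left out, while the rise was lost without 3 h replicate 2 or 3 or without the 3 h replicates with Xist near 0. Chac1 (chr2:119351229-119354381, plus strand), a glutathione-degrading enzyme and ATF4 target, had 10.2, 8.33, 10.1 and 10.8 CPM in the 24 h buds, against 27.9, 24.6, 24.6 and 24.2 CPM in the 3 h buds (log2 fold change -1.36, SE 0.13, adjusted p = 0.00011). Mthfd2, a mitochondrial folate enzyme, had 47.5, 61.4, 71.1 and 57.1 CPM at 24 h, against 119, 125, 115 and 121 CPM at 3 h (log2 fold change -1.02, SE 0.11, adjusted p = 0.000165). Asns, asparagine synthetase, had 60.5, 64.8, 94.6 and 73.2 CPM at 24 h, against 135, 133, 166 and 151 CPM at 3 h (log2 fold change -0.996, SE 0.13, adjusted p = 0.000585). None of these overlapped between the times.

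Slc7a5, a transporter of large neutral amino acids, had 105, 89.9, 133 and 110 CPM at 24 h, against 198, 207, 223 and 219.9 CPM at 3 h (log2 fold change -0.95, SE 0.11, adjusted p = 0.000292). Trib3, a pseudokinase induced by ATF4, had 21.6, 12.3, 9.65 and 14.4 CPM at 24 h, against 29.4, 28.6, 23.3 and 30.9 CPM at 3 h (log2 fold change -0.96, SE 0.21, adjusted p = 0.0115), and its call was lost without the Xist-low libraries (adjusted p = 0.0948). The RNA of Atf4 itself, whose protein is set mainly by translation, had 263, 202, 160.5 and 149 CPM at 24 h, against 204, 229, 209.9 and 185 CPM at 3 h and did not pass (adjusted p = 0.745). The promoter window of Chac1 is shown for the ATF4-type element TGATGCAA, here on the opposite strand and in capitals, 193 bases before the start at chr2:119351022-119351083 on the plus strand on GRCm38.p6.
Chac1: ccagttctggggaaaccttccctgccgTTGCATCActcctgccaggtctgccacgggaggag
These letters were in 5 of 26 stress response genes with a window (19.2%) and in 1.03% of all genes, on either strand.

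Other stress lists held few calls. Of 20 unfolded protein response genes 1 (Sec61b) fell, a call lost without 3 h replicate 3 or 4, 24 h replicate 1, 2 or 4 or the Xist-low libraries. Of 18 heat shock genes 1 rose (2 without 24 h replicate 2 or 4), and of 26 NRF2 and redox genes 1 (Me1) rose (2 without 24 h replicate 1), shares near the background. The heat shock gene that rose was Cryab, a small chaperone that muscle also makes, with 27.1, 36.8, 54.4 and 43.9 CPM at 24 h, against 17.96, 18.96, 14.5 and 18.4 CPM at 3 h (log2 fold change 1.22, SE 0.18, adjusted p = 0.0014). None of 34 ribosomal protein genes and none of 36 oxidative phosphorylation genes passed in edgeR or DESeq2, where 0 and 3 had an unadjusted p under 0.05 in edgeR.

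Glycolysis and hypoxia genes spread widely among the 24 h libraries. None of 39 passed in edgeR or DESeq2, and 3 had an unadjusted p under 0.05 in edgeR, though 36 had a positive log2 fold change (median 0.52). The summed level of the list was 13016, 4237, 5241 and 8485 CPM at 24 h, against 6877, 6223, 6285 and 7538 CPM at 3 h. Aldoa, an aldolase of glycolysis that low oxygen induces, had 1552, 322, 445 and 875 CPM at 24 h, against 474, 414, 413 and 535 CPM at 3 h (log2 fold change 0.80, SE 0.48, adjusted p = 0.369). Ldha, lactate dehydrogenase, had 916, 277, 365 and 632 CPM at 24 h, against 520, 461, 421 and 488 CPM at 3 h (log2 fold change 0.21, SE 0.35, adjusted p = 0.761). In both genes 24 h replicates 1 and 4 lay above all 3 h libraries, and 24 h replicate 2 lay below all of them.

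Most cholesterol synthesis genes tested rose. Of 25 tested, 15 rose and none fell (median 0.59), and 6 rose without the 3 h replicates with Xist near 0. Lss (chr10:76531588-76557138, plus strand), lanosterol synthase, had 47.3, 64.6, 54.7 and 46.5 CPM in the 24 h buds, against 26.2, 27.9, 29.3 and 20.8 CPM in the 3 h buds (log2 fold change 1.03, SE 0.14, adjusted p = 0.000528). Fdps, the enzyme that makes farnesyl diphosphate, had 116, 173, 190.2 and 154 CPM at 24 h, against 83.6, 62.4, 78.8 and 90.4 CPM at 3 h (log2 fold change 1.005, SE 0.15, adjusted p = 0.00158). Msmo1, a sterol oxidase of the later pathway, had 52.8, 85.3, 77.1 and 71.3 CPM at 24 h, against 34.5, 31.2, 40.9 and 40.9 CPM at 3 h (log2 fold change 0.96, SE 0.14, adjusted p = 0.00124). In all 3 the groups did not overlap, and 24 h replicate 1 was the lowest or next to lowest at 24 h. Of 15 fatty acid synthesis genes, 6 rose and none fell, 3 of them without the 3 h replicates with Xist near 0. Scd1, a desaturase, had 122, 95.4, 80.8 and 81.96 CPM at 24 h, against 60.2, 50.5, 43.3 and 47.5 CPM at 3 h (log2 fold change 0.91, SE 0.14, adjusted p = 0.00145). Apoe, a carrier of lipid made by macrophages and other cells, had 334, 208, 288 and 261 CPM at 24 h, against 113, 109, 111 and 126 CPM at 3 h (log2 fold change 1.25, SE 0.13, adjusted p = 0.000127).

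Imprinted genes of embryonic growth were also higher in part. H19, an imprinted non-coding RNA, had 21410, 16300, 19390 and 18830 CPM at 24 h, against 11500, 11480, 11300 and 12690 CPM at 3 h (log2 fold change 0.69, SE 0.17, adjusted p = 0.0236). Its neighbour Igf2, a growth factor, had 12200, 9460, 11350 and 11360 CPM at 24 h, against 8581, 7511, 7738 and 8426 CPM at 3 h and did not pass (adjusted p = 0.0954). The groups of both did not overlap. Dlk1, an imprinted inhibitor of differentiation, had 1446, 1045, 856 and 975 CPM at 24 h, against 747, 675, 520.3 and 555 CPM at 3 h (log2 fold change 0.79, SE 0.17, adjusted p = 0.0105). The call of H19 was lost without 3 h replicate 1, 2 or 3 or 24 h replicate 4 (adjusted p of up to 0.0986) or without the Xist-low libraries (adjusted p = 0.211), and that of Dlk1 without 3 h replicate 3 (adjusted p = 0.0525). Of 20 imprinted genes 3 rose and none fell, and none rose without 3 h replicate 3, while 5 rose without 24 h replicate 3.

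Vessel genes split. Of 37 endothelial genes tested, 6 rose and 5 fell (median -0.029), against 5.45% and 4.10% of all tested genes. Without overlap between the times, 6 were higher and 13 lower, against 8.40% and 8.29% of all tested genes. In DESeq2, run without edgeR's count filter, 20 of the 38 listed genes passed. Without 3 h replicate 3 the rises counted 3, and without the 3 h replicates with Xist near 0 there were 3 rises and 2 falls. The general markers did not pass. Pecam1, an adhesion molecule of all endothelium, had 88.4, 54.1, 59.1 and 65.5 CPM at 24 h, against 73.2, 61.00, 56.5 and 64.4 CPM at 3 h (adjusted p = 0.816). Kdr, the receptor of VEGF, had 54.3, 46.3, 54.03 and 50.7 CPM at 24 h, against 60.8, 52.2, 49.1 and 53.4 CPM at 3 h (adjusted p = 0.715). Both overlapped between the times. Cdh5, the vascular cadherin, had 80.96, 84.3, 69.8 and 77.2 CPM at 24 h, against 106, 86.5, 88.97 and 89.97 CPM at 3 h (adjusted p = 0.119). Emcn, endomucin, had 17.8, 13.9, 15.3 and 16.3 CPM at 24 h, against 19.96, 22.6, 20.6 and 21.04 CPM at 3 h (adjusted p = 0.0592); every 24 h library of both was below every 3 h library. The 4 endothelial markers summed to 198 to 242 CPM at 24 h and 215 to 260.4 CPM at 3 h.

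The 5 falls included the largest of the naming rule. Aplnr (chr2:85136225-85139923, plus strand), the apelin receptor of venous and sprouting endothelium, had 9.26, 8.63, 5.39 and 9.92 CPM in the 24 h buds, against 69.01, 62.1, 67.9 and 72.2 CPM in the 3 h buds (log2 fold change -3.03, SE 0.16, adjusted p = 7.28e-07), the smallest adjusted p among the genes named here. Plvap (chr8:71497754-71511769, minus strand), which forms the diaphragms of fenestrated vessels, had 15.9, 7.25, 15.5 and 12.5 CPM at 24 h, against 60.3, 48.8, 48.4 and 54.4 CPM at 3 h (log2 fold change -2.05, SE 0.21, adjusted p = 0.000165). Vwf, the clotting factor stored in endothelium, had 3.31, 4.85, 1.49 and 2.62 CPM at 24 h, against 9.52, 8.63, 7.06 and 6.53 CPM at 3 h (log2 fold change -1.37, SE 0.30, adjusted p = 0.0121). In these genes every 24 h library was below every 3 h library. The remaining falls were those of Tek, the angiopoietin receptor, with a log2 fold change of -0.99, and of Nr2f2, a factor of venous identity, with -0.47. The call of Nr2f2 was lost without any library but 24 h replicate 3 (adjusted p of up to 0.137). Without the Xist-low libraries the calls of Vwf, Tek and Nr2f2 were lost, with adjusted p of 0.128, 0.121 and 0.0885. The 6 rises included Stab2, a scavenger receptor of sinusoidal endothelium, at a low level, with 0.858, 0.818, 1.65 and 0.705 CPM at 24 h, against 0.115, 0.1598, 0.262 and 0.4501 CPM at 3 h (log2 fold change 2.003, SE 0.55, adjusted p = 0.037). The groups of Stab2 did not overlap, but the call was lost without any library but 3 h replicate 4 (adjusted p of up to 0.106) and without the Xist-low libraries (adjusted p = 0.254). Esm1, a secreted product of tip cells, had 17.8, 8.02, 13.2 and 13.8 CPM at 24 h, against 3.901, 6.07, 4.66 and 6.19 CPM at 3 h (log2 fold change 1.34, SE 0.24, adjusted p = 0.00382). Dll4, the Notch ligand of tip and arterial cells, had 34.02, 17.6, 21.9 and 23.02 CPM at 24 h, against 12.4, 14.01, 10.3 and 11.1 CPM at 3 h (log2 fold change 1.01, SE 0.19, adjusted p = 0.00487), both without overlap and highest in 24 h replicate 1. Gja4, an arterial connexin, rose by a log2 fold change of 0.87, with an adjusted p of 0.0765 without the Xist-low libraries.

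Most macrophage genes tested rose. Of 27 tested, 18 rose and none fell (median 0.90), and this count moved by under 1.5 times with each library left out. Lyz2 (chr10:117277334-117282274, minus strand), the lysozyme of macrophages, had 29.4, 30.04, 38.5 and 29.8 CPM in the 24 h buds, against 5.28, 5.43, 3.45 and 5.85 CPM in the 3 h buds (log2 fold change 2.67, SE 0.18, adjusted p = 5.93e-06). Gpnmb, a glycoprotein of lysosome-rich macrophages, had 25.6, 22.2, 14.1 and 15.2 CPM at 24 h, against 1.72, 0.746, 0.942 and 0 CPM at 3 h (log2 fold change 4.49, SE 0.61, adjusted p = 0.00352). Mpeg1, a pore-forming protein of macrophages, had 26.9, 21.9, 36.1 and 23.9 CPM at 24 h, against 9.24, 5.43, 7.27 and 5.85 CPM at 3 h (log2 fold change 1.97, SE 0.20, adjusted p = 0.000127). Ms4a7 had 4.66, 4.39, 11.6 and 9.92 CPM at 24 h, against 1.61, 0.533, 1.52 and 1.18 CPM at 3 h (log2 fold change 2.66, SE 0.40, adjusted p = 0.00142). In all 4, each 24 h library was above every 3 h library, and Gpnmb had no count in 3 h replicate 4 and a log2 fold change of 5.30 without the Xist-low libraries. Lgals3, galectin-3, had 63.9, 55.4, 85.2 and 50.2 CPM at 24 h, against 20.9, 17.3, 14.9 and 12.3 CPM at 3 h (log2 fold change 1.96, SE 0.19, adjusted p = 0.000151).

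Genes that mark the lineage more generally had smaller fold changes. C1qa, a complement subunit of resident macrophages, had 26.9, 21.1, 39.7 and 30.2 CPM at 24 h, against 17.7, 12.6, 16.2 and 16.8 CPM at 3 h (log2 fold change 0.90, SE 0.18, adjusted p = 0.00722), and its adjusted p was 0.0661 without the Xist-low libraries. Csf1r, the receptor on which macrophages depend, had 27.2, 22.3, 35.1 and 24.7 CPM at 24 h, against 21.2, 20.9, 15.5 and 17.8 CPM at 3 h (log2 fold change 0.54, SE 0.16, adjusted p = 0.0499), and the call was lost on leaving out any library except 24 h replicate 2, with an adjusted p of up to 0.16, and without the Xist-low libraries (adjusted p = 0.0713). Cx3cr1, a receptor of yolk-sac-derived macrophages, had 24.4, 13.3, 23.9 and 18.3 CPM at 24 h, against 21.4, 13.9, 13.8 and 13.8 CPM at 3 h and did not pass (adjusted p = 0.332). The 4 macrophage markers summed to 65.2 to 107 CPM at 24 h and 49.6 to 67.2 CPM at 3 h, with overlap. None of 5 neutrophil and mast cell genes tested passed in edgeR, where 2 had an unadjusted p under 0.05. DESeq2 was run without edgeR's count filter, and 3 of all 15 listed genes passed in it. None of 3 lymphocyte genes tested in edgeR had an unadjusted p under 0.05, and none of all 10 listed passed in DESeq2. Of 24 interferon response genes 4 rose and 1 (Gbp2) fell, against 5.45% and 4.10% of all tested genes. The rises counted 2 without 3 h replicate 3 and 1 without the 3 h replicates with Xist near 0. The fall was lost without any one library or without those 2. Isg15, a ubiquitin-like interferon target, had 2.63, 3.12, 1.07 and 2.37 CPM at 24 h, against 0.344, 0.479, 0.471 and 0.619 CPM at 3 h (log2 fold change 2.25, SE 0.43, adjusted p = 0.00563), and its adjusted p was 0.0704 without the Xist-low libraries.

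Red cell genes had lower levels, with few calls. Of 13 tested, 2 fell and 1 (Tfrc, the transferrin receptor, which other cells also make) rose, with a median of -0.96. Within replicates 3 and 4 alone 7 fell, and without the 3 h replicates with Xist near 0 there were 4 falls, both times with no rise; the rise was also lost without 3 h replicate 3. The 4 red cell markers summed to 767 to 1340 CPM at 24 h and 1196 to 2350 CPM at 3 h, with overlap. Slc4a1, the anion exchanger of the red cell membrane, had 3.19, 4.04, 5.600 and 6.397 CPM at 24 h, against 9.18, 10.3, 16.8 and 24.6 CPM at 3 h (log2 fold change -1.66, SE 0.33, adjusted p = 0.00833). Alas2, the first enzyme of haem synthesis in red cells, had 12.8, 8.48, 12.3 and 11.9 CPM at 24 h, against 24.5, 14.1, 23.2 and 32.01 CPM at 3 h (log2 fold change -1.04, SE 0.22, adjusted p = 0.00976). Hba-a1, an alpha globin with a near-identical copy beside it that may share its reads, had 1193, 754, 1320 and 1202 CPM at 24 h, against 1795, 1171, 1612 and 2291 CPM at 3 h and did not pass (adjusted p = 0.0849).

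Genes of glia went both ways, and those of neurons fell in part. Of 18 Schwann and neural crest genes tested, 5 fell and 3 rose, and of 10 neuron genes 2 fell. Over all tested genes 5.45% rose and 4.10% fell. On the Schwann and neural crest list, 9 log2 fold changes were positive and 9 negative, called or not (median -0.014). The rises counted 1 without 3 h replicate 3 or 4 or 24 h replicate 4, the falls counted 2 without the 3 h replicates with Xist near 0, and the neuron falls counted 1 without any one 3 h library or without those 2. The 4 Schwann cell markers summed to 64.5 to 91.4 CPM at 24 h and 88.7 to 99.8 CPM at 3 h. Sox10, the factor of neural crest and glia, had 7.29, 10.2, 5.39 and 6.55 CPM at 24 h, against 19.3, 22.4, 16.2 and 19.8 CPM at 3 h (log2 fold change -1.40, SE 0.19, adjusted p = 0.000727). Fabp7, a fatty acid carrier of Schwann cell precursors, had 0.429, 0.409, 0.8000 and 0.151 CPM at 24 h, against 2.41, 2.13, 2.197 and 2.25 CPM at 3 h (log2 fold change -2.32, SE 0.45, adjusted p = 0.00581). Neither overlapped between the times, and the call of Fabp7 was lost without the Xist-low libraries (adjusted p = 0.0582).

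Gap43 and Nefm, known from axons, fell too. Gap43, a growth cone protein on the glial list, had 13.6, 11.5, 15.7 and 12.7 CPM at 24 h, against 29.3, 29.6, 27.2 and 32.01 CPM at 3 h (log2 fold change -1.14, SE 0.13, adjusted p = 0.000246). Nefm, a neurofilament subunit, had 3.06, 5.83, 6.400 and 5.24 CPM at 24 h, against 12.2, 12.4, 13.2 and 13.7 CPM at 3 h (log2 fold change -1.32, SE 0.21, adjusted p = 0.00189). The neuronal cell bodies of the limb's nerves lie outside the bud. Gpr17, a receptor among the 12 largest falls, had 1.35, 1.99, 1.71 and 0.252 CPM at 24 h, against 12.9, 9.38, 8.53 and 8.102 CPM at 3 h (log2 fold change -2.87, SE 0.42, adjusted p = 0.00142). Other glial genes did not fall. Erbb3, the neuregulin receptor of Schwann cells, which other cells also make, had 60.3, 65.1, 59.1 and 52.7 CPM at 24 h, against 64.8, 50.3, 59.00 and 55.98 CPM at 3 h and did not pass (log2 fold change 0.044, SE 0.10, adjusted p = 0.83). S100b, a calcium-binding protein of glia and of cartilage, rose, with 16.1, 16.2, 12.1 and 11.8 CPM at 24 h, against 6.94, 3.94, 1.73 and 3.21 CPM at 3 h (log2 fold change 1.83, SE 0.33, adjusted p = 0.00473), and its log2 fold change was 2.51 without the Xist-low libraries.

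**Figure D4:**
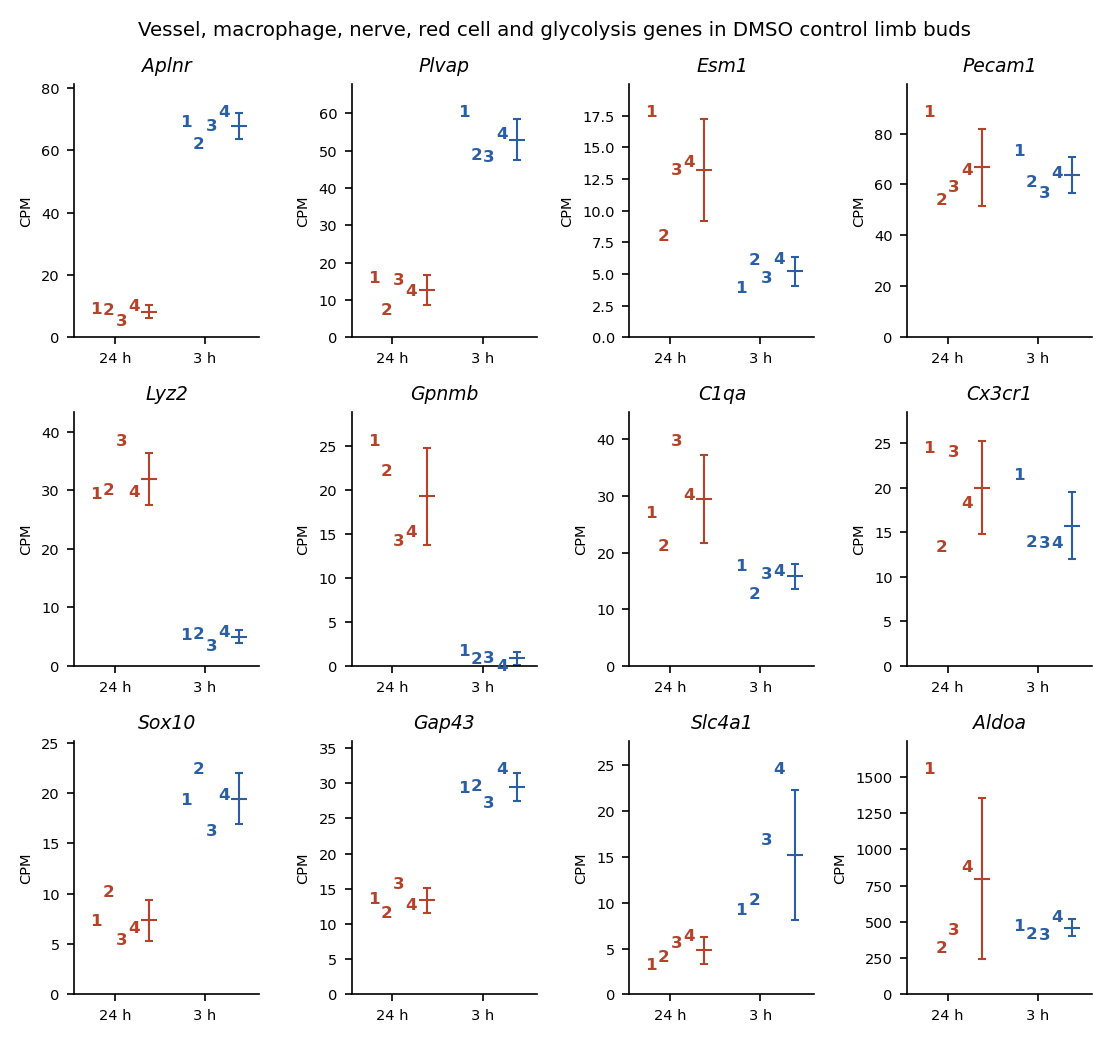
CPM of 12 genes in each control library, 24 h on the left of each panel in red and 3 h on the right in blue; digits are replicate numbers and the bar beside them is the mean ± SD (n = 4). Aplnr, Plvap, Sox10 and Gap43 are lower in every 24 h library and Lyz2 and Gpnmb are higher, Pecam1 and Cx3cr1 overlap, and Aldoa ranges from 322 to 1552 CPM at 24 h.

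Whether these changes also occurred in buds that carried BPDP was read from the libraries of the other arms, each fitted on its own and with no library in common with the controls. With 1 µM BPDP, 3417 of 15462 genes (22.1%) passed between 24 h and 3 h, and 1276 of them were genes called in controls in the same direction. This is 85.4% of the control list and 37.3% of the 1 µM list. With 10 µM BPDP, 4897 of 15434 genes (31.7%) passed, and 1180 were shared in direction with the control list (79.0% of it and 24.1% of the 10 µM list). Across genes, which are not independent replicates, the log2 fold changes of controls correlated with those of 1 µM at r = 0.803 over 15254 genes and with those of 10 µM at r = 0.615 over 15187.

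The difference between the change over time with BPDP and the change over time in controls was tested in one fit of all 24 libraries. Both doses are set against the same controls, so the tests are not independent of each other. The control change is also part of each difference. Here and below, choosing genes by a called change in controls therefore favours differences of the opposite sign. At 1 µM, 6 of 16691 genes (0.0359%) passed and 575 had an unadjusted p under 0.05. One of the 6, Ptch1, was also called over time in controls. At 10 µM, 432 genes (2.59%) passed, of which 219 were also called in controls (14.7% of the control list). Of these, 150 had fallen in controls and fell more with BPDP, 18 had fallen and fell less or rose, 28 had risen and rose more, and 23 had risen and rose less or fell.

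Gli1 and Ptch1, hedgehog targets that had risen in controls, had a lower log2 fold change with 10 µM BPDP, and at 1 µM the difference passed for Ptch1 and not for Gli1. Of 12 tested, 5 had a negative difference that passed at 10 µM and 2 at 1 µM, and none a positive one. At 1 µM 6 had an unadjusted p under 0.05 in edgeR and 4 passed in DESeq2, against 7 and 5 at 10 µM. The median difference of the list was -0.95 at 1 µM and -0.81 at 10 µM. Gli1 stood at 1.72 ± 1.198 CPM at 24 h and 32.9 ± 10.8 CPM at 3 h with 10 µM BPDP, against 106 ± 15.8 CPM at 24 h and 60.5 ± 10.8 CPM at 3 h in controls (mean ± SD, n = 4 each; difference -5.02, SE 0.61, adjusted p = 0.000101). Its log2 fold change over time was 0.81 (SE 0.36) in controls, -1.26 (SE 0.38) with 1 µM BPDP and -4.21 (SE 0.48) with 10 µM BPDP, and at 1 µM the test gave a difference -2.08, SE 0.52, adjusted p = 0.619. Ptch1 changed by 0.86 (SE 0.19) in controls, -0.66 (SE 0.19) with 1 µM BPDP and -0.86 (SE 0.19) with 10 µM BPDP (difference -1.52, SE 0.27, adjusted p = 0.0304 at 1 µM; difference -1.72, SE 0.27, adjusted p = 0.000484 at 10 µM). The call at 1 µM was lost when any of the 16 libraries concerned was left out except 3 h replicate 1 or 24 h replicate 3 of the controls and 24 h replicate 1 or 3 h replicate 3 of the 1 µM arm (adjusted p of up to 0.13). In this fit of all 24 libraries, which share one estimate of the spread, the rise of Gli1 in controls did not pass (edgeR, adjusted p = 0.139).

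Some macrophage genes that rose in controls had a lower log2 fold change with 10 µM BPDP, and at 1 µM no difference of the list passed in edgeR or DESeq2, with 2 at an unadjusted p under 0.05 in edgeR. C1qa stood at 4.96 ± 1.38 CPM at 24 h and 12.9 ± 2.502 CPM at 3 h with 10 µM BPDP, against 29.7 ± 7.92 CPM at 24 h and 15.96 ± 2.18 CPM at 3 h in controls (difference -2.27, SE 0.28, adjusted p = 3.56e-05). C1qc, another subunit of the same complement protein, changed by 1.19 (SE 0.18) in controls, 0.98 (SE 0.18) with 1 µM BPDP and -0.68 (SE 0.19) with 10 µM BPDP (difference -1.87, SE 0.26, adjusted p = 8.73e-05). Lyz2 changed by 2.67 (SE 0.23) in controls, 2.92 (SE 0.23) with 1 µM BPDP and 1.10 (SE 0.23) with 10 µM BPDP (difference -1.57, SE 0.32, adjusted p = 0.00478). Gpnmb changed by 4.48 (SE 0.53) in controls, 4.60 (SE 0.48) with 1 µM BPDP and 6.41 (SE 0.54) with 10 µM BPDP, and its difference, which was positive, did not pass (difference 1.92, SE 0.82, adjusted p = 0.275). Of 29 macrophage genes in this fit 6 had a negative difference that passed and none a positive one.

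Some stress response genes that fell in controls had a higher log2 fold change with 10 µM BPDP. Of the 29 members, 11 had a positive difference that passed, Atf5, which had risen in controls, among them, and none a negative one. Chac1 stood at 37.4 ± 11.04 CPM at 24 h and 33.3 ± 7.88 CPM at 3 h with 10 µM BPDP, against 9.93 ± 1.098 CPM at 24 h and 25.6 ± 1.78 CPM at 3 h in controls (difference 1.53, SE 0.26, adjusted p = 0.000688). Trib3 changed by -0.96 (SE 0.27) in controls, -0.87 (SE 0.27) with 1 µM BPDP and 1.11 (SE 0.26) with 10 µM BPDP (difference 2.08, SE 0.37, adjusted p = 0.00222). Slc7a5 changed by -0.96 (SE 0.13) in controls, -0.996 (SE 0.13) with 1 µM BPDP and 0.029 (SE 0.13) with 10 µM BPDP (difference 0.99, SE 0.18, adjusted p = 0.00165). Asns, which fell in controls, had a difference that did not pass (difference 0.83, SE 0.23, adjusted p = 0.0617). The neurofilament gene Nefm changed by -1.32 (SE 0.19) in controls, -0.96 (SE 0.19) with 1 µM BPDP and 0.43 (SE 0.18) with 10 µM BPDP (difference 1.75, SE 0.26, adjusted p = 0.000175). The joint gene Gdf5 changed by -0.73 (SE 0.13) in controls, -0.34 (SE 0.13) with 1 µM BPDP and 0.20 (SE 0.13) with 10 µM BPDP (difference 0.93, SE 0.18, adjusted p = 0.00291).

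The fall of cell division genes went further with 10 µM BPDP. Of 30 G2/M genes 29, and of 30 G1/S genes 25, had a negative difference that passed. At 1 µM none of either list passed in edgeR, where 15 G2/M and 9 G1/S genes had an unadjusted p under 0.05, while 3 G2/M genes passed in DESeq2. Plk1 stood at 19.7 ± 2.603 CPM at 24 h and 75.2 ± 9.25 CPM at 3 h with 10 µM BPDP, against 40.5 ± 1.896 CPM at 24 h and 80.8 ± 5.79 CPM at 3 h in controls (difference -0.93, SE 0.13, adjusted p = 8.67e-05). Mki67 changed by -0.79 (SE 0.082) in controls, -1.30 (SE 0.083) with 1 µM BPDP and -1.81 (SE 0.085) with 10 µM BPDP (difference -1.02, SE 0.12, adjusted p = 1.57e-05). Top2a changed by -0.74 (SE 0.088) in controls, -1.29 (SE 0.089) with 1 µM BPDP and -1.81 (SE 0.091) with 10 µM BPDP (difference -1.07, SE 0.12, adjusted p = 1.65e-05). Most genes of muscle and cartilage matrix had no difference that passed. Acta1 changed by 1.46 (SE 0.14) in controls, 1.59 (SE 0.14) with 1 µM BPDP and 1.54 (SE 0.14) with 10 µM BPDP (difference 0.082, SE 0.20, adjusted p = 0.906). Col2a1 changed by 1.02 (SE 0.16) in controls, 1.28 (SE 0.16) with 1 µM BPDP and 1.57 (SE 0.16) with 10 µM BPDP (difference 0.56, SE 0.22, adjusted p = 0.206). Of 31 contractile genes none had a difference that passed at either dose in edgeR or DESeq2, and the unadjusted p in edgeR was under 0.05 for 2 at 1 µM and 0 at 10 µM. Of 28 cartilage matrix genes 3 had a positive one at 10 µM.

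**Figure D5:**
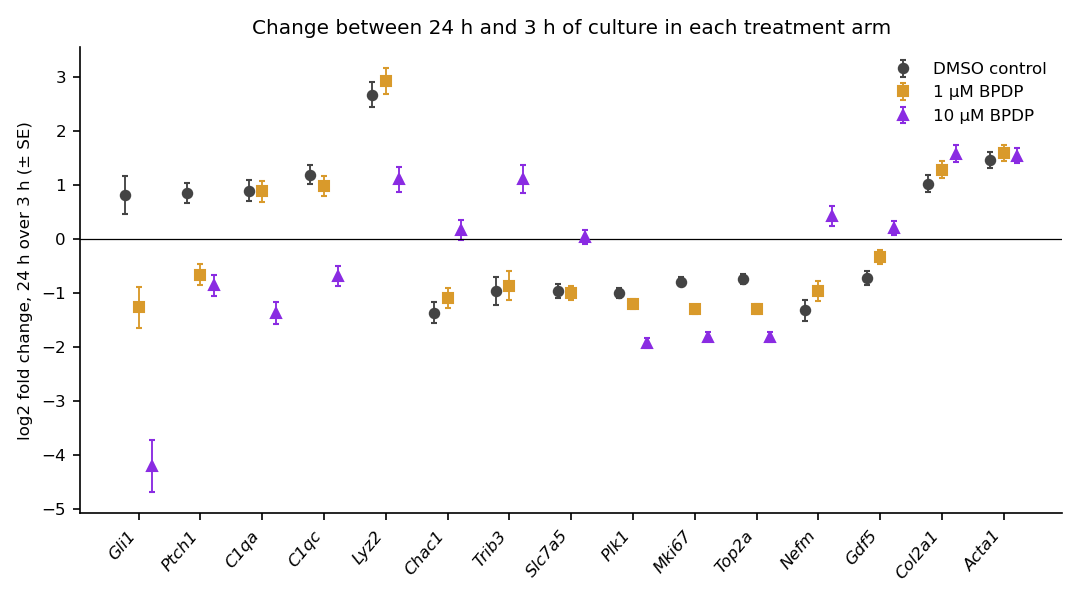
Log2 fold change of 24 h over 3 h (± SE, from 1 fit of 24 libraries) for 15 genes in DMSO controls (grey circles), with 1 µM BPDP (orange squares) and with 10 µM BPDP (purple triangles). Gli1 lies at 0.81 in controls, -1.26 with 1 µM and -4.21 with 10 µM; Chac1 and Trib3 lie below 0 in controls and above 0 with 10 µM; Acta1 and Col2a1 lie above 0 in all 3 arms.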

How the data were processed

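RNA was extracted from cultured forelimb buds, enriched for poly-A tails and sequenced, per the labels' protocols. The deposited tables give whole-number read counts per gene made by the authors, together with the authors' own log2 fold changes and p-values for pairs of groups and the gene length; the submitters' processing notes name CASAVA 1.8, STAR 2.5, HTSeq 0.6.1, DESeq2 2 and mm10. The strand setting is not given in the sources used here, so overlapping and antisense genes cannot be told apart. Counts of 25844 genes were joined over the tables, with 0 differing values where libraries recur. The 50 columns of FPKM and group means were not used.

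For the controls, genes with too few reads were removed (filterByExpr of edgeR, minimum count 10, minimum total 15), counts were TMM-scaled, and 24 h was set against 3 h with edgeR 4.0.16's quasi-likelihood test in R 4.3.3, robust, on the 8 control libraries. P-values were adjusted by Benjamini-Hochberg over all 15640 genes, and an adjusted p under 0.05 is called. All adjusted p-values in the text come from this test unless DESeq2 1.42.0 is named. Differences between arms were contrasts in the same kind of fit on 24 libraries. Fold changes of genes at or near 0 counts depend on the prior count. The script was tested on simulated counts. No 2 control libraries agreed within sampling noise (lowest chi-square per degree of freedom 14.3). Alternatives were other scalings and filters, DESeq2, a replicate block, a term or a split for replicates 1 and 2 against 3 and 4, all 24 libraries, each library left out, and, chosen after seeing the data, the 3 h libraries with Xist near 0 left out.

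The comparison, the 50 gene lists and the named genes were chosen with earlier results of these data known. Genes named are the 12 largest rises and falls among called genes that averaged 50 or more counts at the time with the higher level, with no overlap and no predicted genes, and from each list the 6 called members with the largest change and the 4 further members with the highest level. Members of lists with 5 or fewer calls were named after their values were seen. Some genes that the rule names are not reported here. Promoter windows are those of RefSeq on GRCm38.p6, the assembly of mm10, matched by symbol.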

Additional observations from a re-analysis of the deposited data

Results flagged for a closer look

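For 139 of the genes named, each control group was searched for a library far from the other 3 (Dixon's test), and 19 of 278 groups held one, where chance alone flags about 1 in 20. At 24 h, replicate 1 was low for Chrng (33.28 CPM, others 43.17 to 44.91), Myod1 (57.25 CPM, others 78.29 to 80.01) and Crabp2 (73.43 CPM, others 96.0 to 97.71), and high for Enpp2 (109.9 CPM, others 77.32 to 81.81). Replicate 3 at 24 h was high for Krt77 (235.4 CPM, others 11.33 to 48.73), Krt14 (700.6 CPM, others 390.4 to 431.9), Lyz2 (38.51 CPM, others 29.36 to 30.04) and Stab2 (1.653 CPM, others 0.7052 to 0.8581). Replicate 4 at 24 h was high for Hoxa13 (62.97 CPM, others 54.83 to 56.2) and Plk1 (42.92 CPM, others 39.09 to 39.53).

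At 3 h, replicate 1 was high for Foxa3 (6.54 CPM, others 4.315 to 4.394), Osr1 (132.7 CPM, others 123.5 to 123.9), Eln (202 CPM, others 138.2 to 138.9), Chac1 (27.94 CPM, others 24.19 to 24.64) and Cx3cr1 (21.4 CPM, others 13.76 to 13.9). Replicate 2 at 3 h was low for Myh8 (82.52 CPM, others 98.59 to 101.2). Replicate 3 at 3 h was high for Cdkn2b (1.778 CPM, others 1.407 to 1.438). Replicate 4 at 3 h was high for Chrnd (8.89 CPM, others 7.48 to 7.671) and H19 (12690 CPM, others 11300 to 11500).

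For 33 differences, the log2 change over time with BPDP minus that in controls passed edgeR's test at an adjusted p under 0.05. The difference was negative at 10 µM for the hedgehog targets Gli1 (-5.02) and Ptch1 (-1.7175), and at 1 µM for Ptch1 (-1.5197). It was negative at 10 µM for the macrophage genes Cx3cr1 (-2.3568), C1qa (-2.2684), C1qc (-1.8698), Csf1r (-1.6549) and Lyz2 (-1.5674). Among endothelial genes the values at 10 µM were -3.4331 for Stab2, -1.238 for Dll4, -1.0657 for Aplnr, -0.8067 for Pecam1, -0.6978 for Cdh5 and -0.5553 for Kdr. Among division genes they were -1.0679 for Top2a, -1.0196 for Mki67, -0.9335 for Plk1, -0.8913 for Ckap2, -0.8897 for Kif2c, -0.84 for Mcm5, -0.67 for Aurka and -0.6481 for Ube2c. Tfrc, the transferrin receptor, had -0.6458.

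Positive differences at 10 µM were found for the stress response genes Trib3 (2.0766), Chac1 (1.5291), Slc7a5 (0.9865), Atf5 (0.895) and Mthfd2 (0.8028). They were also found for the neurofilament gene Nefm (1.7507), the joint gene Gdf5 (0.9295), the receptor gene Pth1r (0.8978), and the lipid genes Msmo1 (0.8058) and Scd1 (0.6796). The calls of Stab2, Kdr, Aurka and Ube2c were lost with 7, 4, 1 and 2 of 16 single libraries left out, and that of Scd1 with 13.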

How the results depend on the processing

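The count of 1494 genes called between 24 h and 3 h was 44 with replicates 1 and 2 only, 697 without the 3 h libraries with Xist near 0 (an alternative chosen after seeing the data) and 2739 with all 24 libraries in the fit; the first 2 have fewer samples, and the cause of the third was not tested. Each library left out in turn gave 791 to 1600. The count of 374 genes with at least 2-fold change was 41 with replicates 1 and 2 only and 234 to 400 with single libraries left out. The differences at 1 µM, 6 genes, numbered 16 with DESeq2 and 3 to 10 with single libraries left out; those at 10 µM, 432 genes, numbered 681 with DESeq2 and 332 to 537. DESeq2 called 2148 genes over time, within 1.5 times of edgeR.

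Every one of the 1494 genes kept its direction under each setting in which all were tested, except 1 with replicates 3 and 4 only. For 139 of the named genes, 2475 of 2777 values kept direction and side of the threshold, 267 lost the call, 35 gained it and none reversed. All settings draw on the libraries by which genes were called, so a kept direction does not measure reproducibility. Of 1060 counts over lists, 292 moved by more than 1.5 times. Same-numbered libraries of 24 h and 3 h deviated together with correlations of 0.182, 0.345, 0.0854 and 0.226, and 3 of the 4 correlated best with their own number. This does not pair them. A fit that blocks on replicate number called 2015 genes, 1461 of them shared with the 1494, and the differences numbered 9 at 1 µM and 617 at 10 µM.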

Other observations

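Several lists outside the main tissues also held calls between 24 h and 3 h in the DMSO controls, all by edgeR's quasi-likelihood test. Of all tested genes, 5.45% rose and 4.10% fell. Of 24 p53 target genes, 4 rose and 3 fell. Beside Cdkn1a, the rises included Eda2r, a death receptor of the TNF family, with 4.84, 5.52, 5.600 and 4.79 CPM at 24 h, against 2.98, 2.02, 1.25 and 2.25 CPM at 3 h (log2 fold change 1.29, SE 0.28, adjusted p = 0.0111), and Ccng1, a cyclin that p53 induces, with 71.2, 74.3, 84.7 and 75.6 CPM at 24 h, against 59.6, 52.9, 52.98 and 47.04 CPM at 3 h (log2 fold change 0.53, SE 0.098, adjusted p = 0.00445). The falls included Sesn2, a stress protein that ATF4 also induces, with 39.7, 34.5, 32.5 and 38.3 CPM at 24 h, against 56.8, 61.5, 54.8 and 68.1 CPM at 3 h (log2 fold change -0.73, SE 0.10, adjusted p = 0.000889), and Ckap2, a spindle protein, with 25.9, 22.3, 27.6 and 25.8 CPM at 24 h, against 35.8, 35.9, 41.8 and 42.6 CPM at 3 h (log2 fold change -0.62, SE 0.11, adjusted p = 0.00411). In these 4 genes the groups did not overlap, and each kept its call with every single library left out.

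Of 12 mural cell genes, those of the muscle-like cells around vessels, 3 rose and none fell. Cspg4, the proteoglycan of pericytes that cartilage also makes, had 194, 232, 204 and 213 CPM at 24 h, against 149, 137, 132 and 123 CPM at 3 h (log2 fold change 0.64, SE 0.093, adjusted p = 0.00104). Des, the filament protein desmin, which skeletal muscle shares, had 123, 145, 205 and 169.8 CPM at 24 h, against 111, 82.9, 76.5 and 93.1 CPM at 3 h (log2 fold change 0.82, SE 0.16, adjusted p = 0.00659). Of 13 genes of fat cells and lipid droplets, 4 rose and none fell, 2 of them without 3 h replicate 2, 3 or 4 or 24 h replicate 1 and 1 without the 3 h replicates with Xist near 0. Cd36, a fatty acid receptor, had 23.7, 32.9, 20.6 and 16.5 CPM at 24 h, against 13.5, 11.4, 9.31 and 9.51 CPM at 3 h (log2 fold change 1.10, SE 0.20, adjusted p = 0.00449), and Fabp3, a fatty acid carrier of muscle, had 7.97, 12.3, 16.2 and 14.4 CPM at 24 h, against 5.33, 5.22, 6.22 and 7.82 CPM at 3 h (log2 fold change 1.05, SE 0.23, adjusted p = 0.0104). Without the 3 h replicates with Xist near 0, Fabp3 had an adjusted p of 0.121. The 4 fat cell markers summed to 0.373 to 2.76 CPM at 24 h and 0.450 to 10.2 CPM at 3 h.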
